A study of Mus musculus with 4 samples.

Results

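The distal ends of the 19 mouse autosomes were taken as the last 2 Mb before the highest mapped read position of any library on each chromosome of the mm8 assembly. Mouse centromeres lie close to the low-numbered end of each chromosome, so the high-numbered end is the distal, telomere-proximal side. Bins of 10 kb counted back from each end gave 200 bins per chromosome and 3800 of the 240517 autosomal bins, which is 38 Mb or 1.58% of the mapped span. The choice rests on position alone, and no read density entered it.

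Reads came from chromatin immunoprecipitation and sequencing (ChIP-seq) of V6.5 embryonic stem cells, a mouse line of hybrid C57BL/6 and 129 strain background. There were 4 libraries, 1 each with an antibody against REST, Ring1b, MCAF1 and trimethylated lysine 20 of histone H4 (H4K20me3), and the labels give each a separate flow cell. All 4 came from the same untreated line, kept on mouse embryonic fibroblast feeders and moved to gelatin for 1 passage (REST) or 2 passages (the others), and carry-over of feeder cells was not measured. All shared sheared chromatin of 500 bp on average and 18 cycles of amplification, while the gel slice reached 350 bp in REST and H4K20me3 and 300 bp in Ring1b and MCAF1. With 1 library per antibody, antibody, flow cell and replicate cannot be told apart, no difference between libraries had a replicate check, and no test between them was made. Neither input DNA nor a control antibody was analysed here, and the labelled cell type could not be checked against marker expression, since the files hold read positions only.

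Telomeres cap chromosomes with short repeats, and the sequence next to them, the subtelomere, often holds segments copied between chromosomes. Trimethylated H4K20 is known from pericentric and telomeric heterochromatin, and MCAF1 is a cofactor of the histone methyltransferase SETDB1, which silences repeats. Ring1b is the catalytic ubiquitin ligase of Polycomb repressive complex 1, which covers silent developmental genes in embryonic stem cells, and REST is a zinc-finger repressor that binds a long motif near neuronal genes.

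After 1 read was kept per position and strand, the autosomes held 3063633 reads with 1 reported location in REST, 3023138 in Ring1b, 10818054 in MCAF1 and 7655438 in H4K20me3. An average 10-kb bin therefore held 12.7, 12.6, 45.0 and 31.8 reads in that order, so single bins are least precise in REST and Ring1b. The fold used below is the read density of a segment over the mean density of the same library across the autosomes. Intervals in parentheses are exact 95% intervals for counting error only, and chromosomes, bins and regions are not replicates.

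The last 2 Mb as a group lay slightly above the autosome mean in all 4 libraries. The fold was 1.09 (1.08 to 1.10) in REST from 52778 reads, 1.25 (1.24 to 1.26) in Ring1b from 59553 reads, 1.09 (1.08 to 1.09) in MCAF1 from 185589 reads and 1.13 (1.13 to 1.14) in H4K20me3 from 137046 reads. These means were set by a few ends. Only 8, 9, 10 and 8 of the 19 ends lay above 1 in REST, Ring1b, MCAF1 and H4K20me3, and the median end stood at 0.963, 0.9504, 1.05 and 0.917. Without the highest end of each library the fold was 1.03 in REST, 1.04 in Ring1b, 1.03 in MCAF1 and 1.05 in H4K20me3; the end left out was chromosome 15 in Ring1b and chromosome 4 for the other 3.

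The distal ends were less covered than the sequence just inside them. In the 2 Mb next to the last 2 Mb, the fold was 1.35 in REST, 1.41 in Ring1b, 1.38 in MCAF1 and 1.53 in H4K20me3. The distal density was 0.807 (0.798 to 0.816), 0.886 (0.876 to 0.896), 0.787 (0.782 to 0.792) and 0.743 (0.738 to 0.748) of that neighbouring density, and it was the higher of the pair on 6, 6, 6 and 5 of 19 chromosomes. Mappable sequence also differed, since 91.9% of 1-kb windows in the last 2 Mb held a read of any library against 95.4% in the next 2 Mb, and its share in the difference was not tested. The first mapped 2 Mb at the opposite, centromere-proximal end had folds of 0.965, 0.895, 0.964 and 0.992, with 83.4% of windows holding a read. The distal end was the denser of a chromosome's 2 ends on 12 chromosomes in REST and Ring1b, 11 in MCAF1 and 10 in H4K20me3.

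Chromosome ends differed from each other far more than the 4 libraries did at any end but that of chromosome 15. The end of chromosome 15 had folds of 1.74 in REST, 4.98 in Ring1b, 1.69 in MCAF1 and 1.80 in H4K20me3. The end of chromosome 4 had 2.19, 2.27, 2.0 and 2.70 in the same order, and the end of chromosome 11 had 1.84, 1.85, 1.81 and 2.20. Ring1b stood apart at chromosome 15, and H4K20me3 was the highest library at chromosomes 4 and 11. The ends of chromosomes 2 and 7 completed a set of 5 that reached 1.5-fold in every library. Among all 1195 autosomal windows of 2 Mb, 12.7% reached 1.5-fold in REST, 16.2% in Ring1b, 15.5% in MCAF1 and 18.7% in H4K20me3, against these 5 of 19 ends.

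At the other extreme, the end of chromosome 17 had folds of 0.504 (0.476 to 0.532), 0.428 (0.403 to 0.454), 0.459 (0.445 to 0.473) and 0.338 (0.324 to 0.353) in REST, Ring1b, MCAF1 and H4K20me3. At chromosome 18 the folds were 0.551, 0.416, 0.458 and 0.348, and at chromosome 3 they were 0.583, 0.551, 0.517 and 0.389. REST was the highest and H4K20me3 the lowest library at each of these 3 ends. Only 76.3% of 1-kb windows held a read at the end of chromosome 17, against 84.1% at chromosome 18, 85.7% at chromosome 3 and 97.5% to 98.4% at the 5 highest ends, so sequence without any read moved with the order, and its part was not tested. The ratio of the mean of the 5 highest ends to that of the 5 lowest was 3.13 in REST, 3.47 in MCAF1, 5.12 in Ring1b and 5.34 in H4K20me3.

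**Figure D1:**
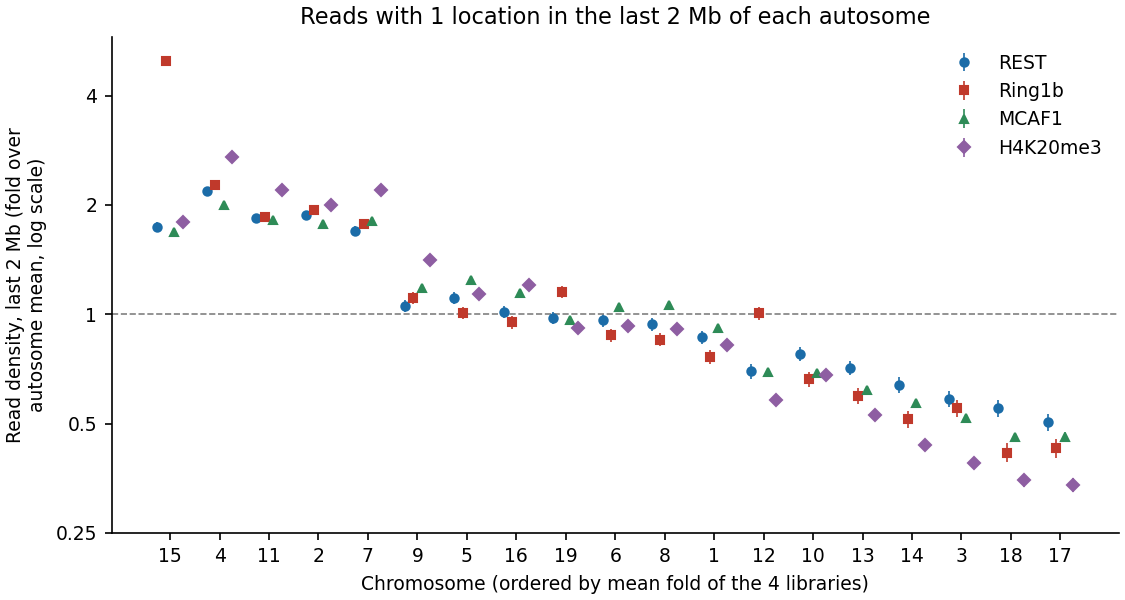
Read density in the last 2 Mb of each autosome (vertical axis, fold over the autosome mean of the library, log scale) for the 4 libraries, with chromosomes ordered by their mean fold. Points are single libraries, and bars, mostly smaller than the symbols, are exact 95% counting intervals. The ends of chromosomes 15, 4, 11, 2 and 7 lie above 1.5 in all libraries, and Ring1b at chromosome 15 (4.98) is the highest value.

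The order of ends was not simply that of whole chromosomes. Chromosome 17 as a whole lay at 1.10 times the autosome mean averaged over libraries, yet its end was 0.393 of its own chromosome's mean. Chromosome 4 as a whole lay at 1.02, and its end at 2.25 times that. Ranked among the 76 windows of 2 Mb along chromosome 4, the distal one was 1 in H4K20me3, 3 in REST and Ring1b, and 6 in MCAF1. On chromosome 7 it ranked 1 of 71 in H4K20me3, on chromosome 15 it ranked 1 of 50 in Ring1b, and on chromosome 18 it ranked 42 of 43 in all 4 libraries. Across the 19 ends, the libraries kept much the same order, with Spearman coefficients from 0.923 (Ring1b with MCAF1 or with H4K20me3) to 0.986 (MCAF1 with H4K20me3); the points share their mappable sequence and base composition.

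The ends hold different genes. The gene names that follow come from the RefSeq order on the later GRCm38.p6 assembly and are listed for orientation, without positions or values. Counted inwards from the end, chromosome 4 lists Vmn2r129 (a vomeronasal receptor), Samd11, Noc2l and Klhl17, and chromosome 2 lists Polr3k (an RNA polymerase subunit), Pcmtd2, Myt1 (a neural zinc-finger factor) and Oprl1 (the nociceptin receptor) behind 2 unnamed gene models. Chromosome 13 lists a run of unnamed models with Tcstv3 and Tcstv1, a family known from early embryos.

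In REST, Ring1b and MCAF1, density of reads with 1 location was lower in the last 100 kb than further in, and lowest from 10 to 50 kb. Between 1500 and 2000 kb from the end the fold was 1.26, 1.34, 1.26 and 1.36 in REST, Ring1b, MCAF1 and H4K20me3. In the last 100 kb it was 0.778 (0.743 to 0.814), 0.746 (0.712 to 0.781), 0.834 (0.815 to 0.853) and 1.16 (1.13 to 1.18). H4K20me3 was the only library of the 4 above the autosome mean in the last 100 kb, and there the end of chromosome 4 alone reached 6.28, while the median end was 0.562 and 6 of 19 ends lay above 1. At the boundary of 2 Mb, the fold just inside, from 1900 to 2000 kb, was 1.27, 1.12, 1.28 and 1.40, and just outside, from 2000 to 2100 kb, 1.29, 1.51, 1.35 and 1.42, with the largest step in Ring1b. These are means over the ends, and the Ring1b median went only from 0.979 to 1.08.

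Pooled over the ends, the outermost 10 kb stood above the next 40 kb in all 4 libraries. Each end was set at a mapped read, so the outermost 10 kb always held at least that read. In the last 10 kb 87.9% of 1-kb windows held a read, against 84.6% from 10 to 50 kb, and the part of this in the difference was not tested. From 10 to 50 kb the fold was 0.686 in REST, 0.600 in Ring1b, 0.752 in MCAF1 and 1.10 in H4K20me3, and in the last 10 kb it was 1.05 (0.928 to 1.19), 0.913 (0.796 to 1.04), 1.11 (1.04 to 1.18) and 2.61 (2.48 to 2.74). The highest single end in the last 10 kb was chromosome 13 in REST and Ring1b and chromosome 4 in MCAF1 and H4K20me3, where H4K20me3 reached 20.6. Each without its highest end at that distance, the last 10 kb stood at 0.929, 0.650, 0.939 and 1.61, and 10 to 50 kb at 0.612, 0.525, 0.671 and 0.771. The pooled order was thus kept in each library, although the end left out could differ between these distances. At the median end it was kept in REST (0.707 against 0.608), MCAF1 (0.623 against 0.567) and H4K20me3 (0.691 against 0.566). In Ring1b it was not, with 0.318 in the last 10 kb against 0.497 from 10 to 50 kb. A single end also set the Ring1b fold between 500 and 1000 kb, 1.61 (1.59 to 1.64), where chromosome 15 stood at 14.3 and the fold without it was 0.908.

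**Figure D2:**
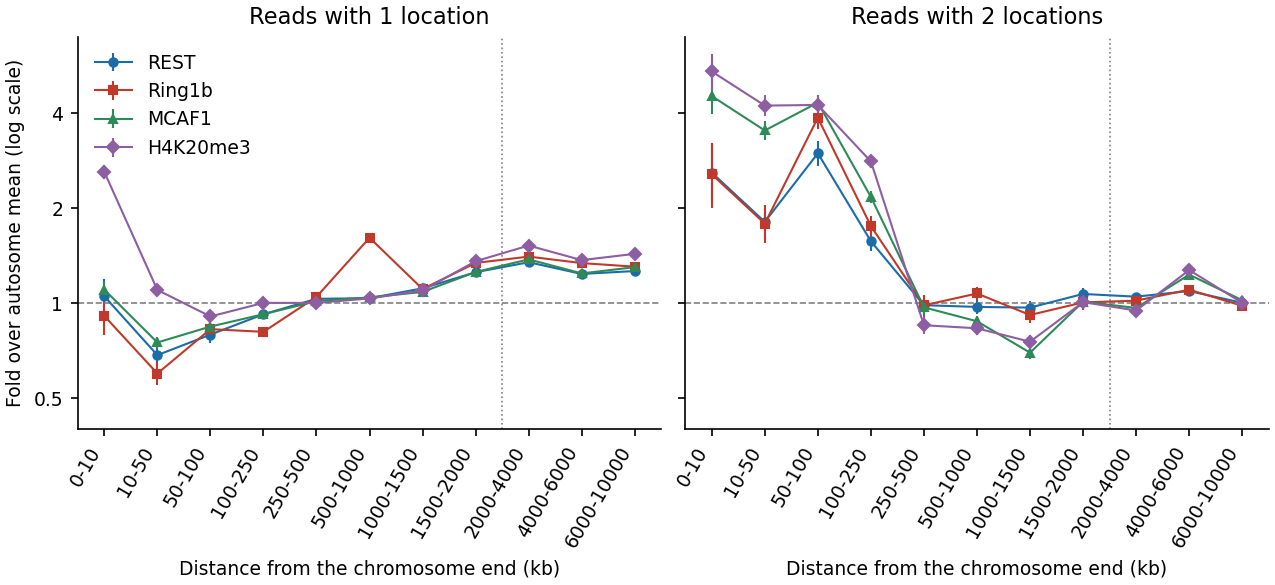
Fold over the autosome mean (log scale) by distance from the chromosome end in kb, pooled over 19 autosomes, for reads with 1 location (left) and with 2 locations (right). Points are single libraries with exact 95% counting intervals, and the dotted line marks 2000 kb. Reads with 1 location lie below 1 in REST, Ring1b and MCAF1 from 10 to 250 kb, whereas reads with 2 locations lie well above 1 inside 250 kb in all 4 libraries.

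H4K20me3 was compared with MCAF1 on its own, since both were aligned with the same seed length of 36 bases. In the last 10 kb the fold of H4K20me3 was 2.36 (2.18 to 2.56) times that of MCAF1, and it was the higher on 13 of 19 ends. Left without chromosome 4, the ratio was 1.72 (1.56 to 1.89). From 10 to 50 kb the ratio was 1.47 (1.39 to 1.55), and 1.07 (1.01 to 1.14) without chromosome 4. Also without chromosome 4, it was 1.04 (0.984 to 1.10) from 50 to 100 kb and 1.09 (1.06 to 1.12) from 100 to 250 kb. It was 0.947 (0.927 to 0.969) from 250 to 500 kb, 0.980 (0.965 to 0.995) from 500 to 1000 kb and 0.973 (0.958 to 0.988) from 1000 to 1500 kb. From 1500 to 2000 kb it was 1.06 (1.05 to 1.07), and from 2 to 4 Mb 1.09 (1.08 to 1.10). The ratio of the outermost 10 kb thus lay above all of these. That from 10 to 50 kb lay above the stretch of 250 to 1500 kb, but not above those of 100 to 250 kb and 2 to 4 Mb. Apart from the outermost 10 kb, there was no steady rise towards the end. The outermost ratio still included chromosome 13, where an H4K20me3 region 3.83 kb from the end had 32.5-fold against 4.80 in MCAF1. A ratio without both ends was not computed. At the median end, the last 10 kb stood at 0.691 in H4K20me3 and 0.623 in MCAF1.

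The end of chromosome 4 showed the outer H4K20me3 signal bin by bin. In its outermost bin (155019663–155029662) H4K20me3 had 655 reads at 20.6-fold (19 to 22.2), MCAF1 4.11-fold, REST 2.98-fold and Ring1b 2.71-fold. In the next bin inwards (155009663–155019662) H4K20me3 had 600 reads at 18.9-fold, against 3.07, 2.04 and 1.59 in MCAF1, REST and Ring1b. H4K20me3 was highest by far in both bins. Between 40 and 50 kb from this end, H4K20me3 stood at 4.27-fold while REST had 0.236, Ring1b 0.239 and MCAF1 0.645. That bin had the highest H4K20me3 fold relative to the mean of the other libraries in the distal ends, 11.5 times, among bins of at least 20 reads. Further out, 5.16 kb from this end, an H4K20me3 domain at 155012001–155024500 was 12.5 kb wide. It stood at 25.1-fold, against 3.66 in MCAF1, 2.39 in REST and 1.65 in Ring1b.

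Pooled over the ends, high bins were somewhat more frequent than along the autosomes. At 2-fold or more there were 449 distal bins in REST (11.8%, 10.8% to 12.9%), against 9.06% of all autosomal bins. Ring1b had 413 (10.9%, 9.90% to 11.9%) against 8.32%, MCAF1 409 (10.8%, 9.80% to 11.8%) against 8.52%, and H4K20me3 602 (15.8%, 14.7% to 17%) against 11.8%. The end of chromosome 4 held the most such bins in each library, 97 in REST, 76 in Ring1b, 95 in MCAF1 and 138 in H4K20me3 of its 200. This end alone thus gave 97 of the 449 REST bins, 76 of 413 in Ring1b, 95 of 409 in MCAF1 and 138 of 602 in H4K20me3. The excess over the autosomes rested at least in part on it. Shares without it were not computed, so an excess across the ends in general is not shown. All 4 libraries reached 2-fold together in 215 distal bins (5.66%), against 3.72% of autosomal bins. The median distal bin was 0.864 in REST and equal to the autosomal median. It was above the autosomal median in Ring1b (0.716 against 0.636), MCAF1 (0.978 against 0.867) and H4K20me3 (0.848 against 0.754). A single read in a bin is a fold of 0.0785 in REST and 0.0796 in Ring1b, so the Ring1b medians differ by a single read and do not set it apart from REST.

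Ring1b was the most unevenly spread of the 4 along the ends. The highest 1% of distal bins held 22.4% of its distal reads, against 6.47% in H4K20me3, 4.80% in REST and 3.34% in MCAF1. Its 3 highest bins all lay on chromosome 15, at 102782395–102792394 (95.6-fold, 90.2 to 101), 102802395–102812394 (94.2-fold) and 102762395–102772394 (73.4-fold). In the first of these REST had 2.59-fold, MCAF1 1.96-fold and H4K20me3 2.98-fold. These bins belong to a Ring1b domain of 22 enriched regions over 126.5 kb (102737501–102864000), 628 kb from the end, with 7636 Ring1b reads at 48.0-fold. Across the same domain REST was at 2.51, MCAF1 at 1.92 and H4K20me3 at 2.87, beside 1.74, 1.69 and 1.80 over the whole end.

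As background, the HoxC cluster of developmental transcription factor genes is a textbook Polycomb target and lies near the end of mouse chromosome 15. In the GRCm38.p6 gene order its 9 genes, from Hoxc4 to Hoxc13, stand at places 16 to 24 from that end with no other protein-coding gene between them. Their mm8 positions were not used here, so whether the domain covers them was not tested, and they are named after the values were seen. The next widest Ring1b domains of the ends were 19.5 kb on chromosome 12 (119280001–119299500, 40.4-fold) and 19 kb on chromosome 19 (59504501–59523500, 30.1-fold). At both, REST, MCAF1 and H4K20me3 ran from 1.81 to 3.19.

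**Figure D3:**
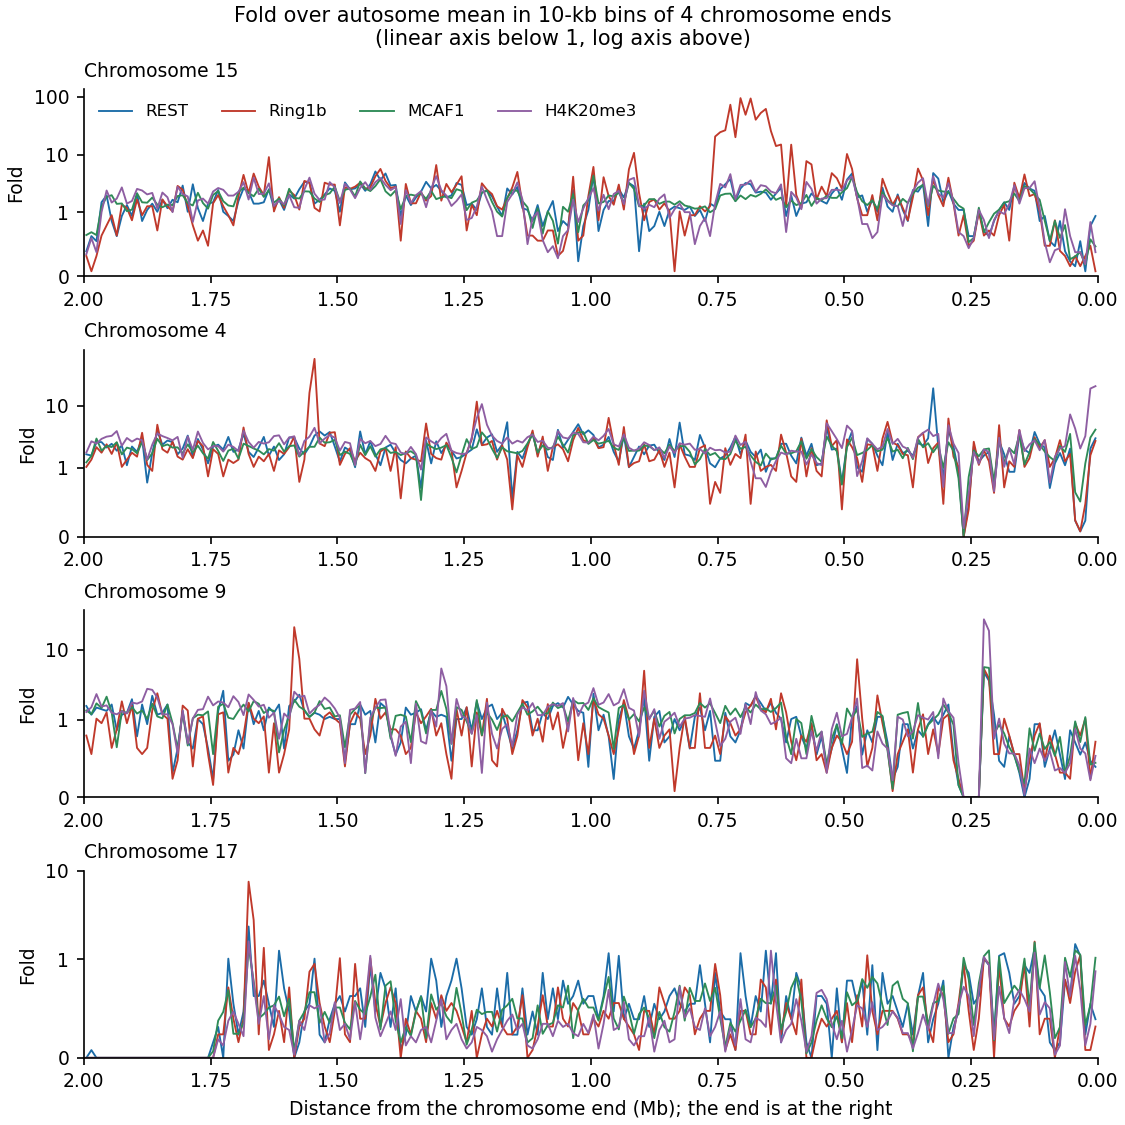
Fold over the autosome mean in each 10-kb bin of the last 2 Mb of chromosomes 15, 4, 9 and 17, plotted by distance from the end in Mb, with the end at the right. The axis is linear below 1 and logarithmic above, and each line is 1 library. Ring1b peaks at 95.6 on chromosome 15, H4K20me3 reaches 20.6 at the tip of chromosome 4 and 27.3 on chromosome 9, and chromosome 17 stays low with a stretch of no reads at its inner side.

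The highest REST and H4K20me3 bins lay on chromosomes 4 and 9. The highest REST bin, on chromosome 4 at 154699663–154709662, had 242 reads at 19-fold (16.7 to 21.6), against 2.07 in Ring1b, 1.78 in MCAF1 and 3.24 in H4K20me3. It held 425 reads before repeated positions were removed. The next 2 REST bins lay on chromosome 2, at 181846288–181856287 (7.54-fold) and 181236288–181246287 (6.83-fold). The highest H4K20me3 bin was on chromosome 9 at 123770625–123780624, with 868 reads at 27.3-fold (25.5 to 29.1), and it was also the highest MCAF1 bin at 5.65-fold (4.97 to 6.39). REST at 4.79 and Ring1b at 5.33 were raised in that bin too. MCAF1 had little signal of its own by this measure: its highest ratio to the other libraries was 3.84 in a bin of chromosome 17 (93447319–93457318) with 21 reads and a fold of only 0.467. A further high MCAF1 bin, at 102492395–102502394 on chromosome 15, had 4.31-fold, with 4.48 in REST, 6.13 in Ring1b and 2.61 in H4K20me3.

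Enriched regions were called inside each library from windows of 1000 bp whose reads exceeded the larger of the genome mean and the surrounding 1 Mb (Poisson probability at most 1e-09 and at least 5-fold). The ends held 63 REST, 234 Ring1b, 48 MCAF1 and 179 H4K20me3 regions. Of covered windows, 0.142%, 0.939%, 0.133% and 0.554% were called in the ends, beside 0.104%, 0.646%, 0.0739% and 0.411% over the autosomes. Per Mb this was 1.66 against 1.10 in the rest of the autosomes in REST, a ratio of 1.5 (1.15 to 1.93), and 6.16 against 4.30 in Ring1b, a ratio of 1.43 (1.25 to 1.63). For MCAF1 it was 1.26 against 0.828, a ratio of 1.53 (1.12 to 2.03), and in H4K20me3 4.71 against 3.87, a ratio of 1.22 (1.05 to 1.41). Leaving out 1 end brought the interval of the ratio down to 1 in 3 libraries. In REST the ratio was 1.23 (0.910 to 1.64) without chromosome 2 and 1.33 (0.996 to 1.75) without chromosome 4, and in MCAF1 it was 1.38 (0.984 to 1.87) without chromosome 9. In H4K20me3 it was 1.11 (0.944 to 1.31) without chromosome 2, 1.12 (0.951 to 1.31) without chromosome 9 and 1.16 (0.990 to 1.36) without chromosome 15. In Ring1b its lowest value was 1.27 (1.09 to 1.46), without chromosome 15. With reads of the other 3 libraries as background the ratio was 1.22 (0.739 to 1.89) in REST, 1.65 (1.29 to 2.08) in Ring1b and 1.21 (0.775 to 1.81) in H4K20me3. Regions were uneven among the ends: chromosome 15 held 38 of the Ring1b regions, chromosome 2 held 14 of the REST and 24 of the H4K20me3 regions, and 5 ends had no REST region and 4 no MCAF1 region. Median widths were 1500 bp in all 4 libraries, and median folds were 10.1 in REST, 11.2 in Ring1b, 6.19 in MCAF1 and 6.80 in H4K20me3, beside 10.8, 11.9, 5.79 and 6.80 in the rest of the autosomes.

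MCAF1 regions were denser towards the telomere side, by an amount that depended on the background used. Of the 48, 31 lay within 500 kb of the end (3.26 per Mb, 2.22 to 4.63) on 12 ends, and 17 lay between 500 and 2000 kb (0.596 per Mb, 0.347 to 0.955), with 0.828 per Mb in the rest of the autosomes. In the last 100 kb there were 12 on 7 ends, 6.32 per Mb (3.26 to 11). Chromosome 9 held 5 of the 31, and without that end the density within 500 kb was 2.89 per Mb. With every library thinned to equal depth, 12 of 13 MCAF1 regions and 34 of 66 H4K20me3 regions of the ends lay within 500 kb. H4K20me3 had 4.11 regions per Mb (3.40 to 4.92) beyond 500 kb, 6.53 (5.0 to 8.37) within it and 8.42 (4.81 to 13.7) in the last 100 kb. The density within 500 kb was 5.47 (2.94 to 10.5) times that beyond in MCAF1 and 1.59 (1.15 to 2.18) times in H4K20me3. With the genome mean alone as background, without the surrounding 1 Mb, these were 1.59 (1.18 to 2.12) in MCAF1, from 7.79 against 4.91 per Mb, and 1.04 (0.834 to 1.30) in H4K20me3, from 11.9 against 11.4 per Mb. REST had 2.0 per Mb (1.20 to 3.12) within 500 kb and 1.54 (1.12 to 2.07) beyond, and Ring1b 5.37 (4.0 to 7.06) and 6.42 (5.52 to 7.42), so for both the intervals overlapped. With reads of the other 3 libraries as background, Ring1b was sparser within 500 kb, at 0.313 (0.121 to 0.682) times the density beyond, from 7 against 67 regions. By that background the ratio was 0.529 (0.0994 to 1.83) in REST and 2.54 (1.03 to 6.14) in H4K20me3. The Ring1b ratio by that background was not computed without chromosome 15. In the main calls, that end held 38 of the 183 Ring1b regions beyond 500 kb. Without it the main density beyond 500 kb was 5.37 per Mb in place of 6.42.

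The outer MCAF1 regions were set beside the calls of the other libraries. Of the 31 within 500 kb, 19 overlapped an H4K20me3 region, 15 a Ring1b region and 7 a REST region, by at least 1 bp, and 8 overlapped none. The share that overlapped any was 74.2% (55.4% to 88.1%), against 15 of the 17 inner regions (88.2%, 63.6% to 98.5%) and 74.1% in the rest of the autosomes. The 10-kb bins holding them had a median fold of 2.42 in MCAF1 reads with 2 locations, against 0.690 for the bins of the 17 inner regions. With reads of the other 3 libraries as background, no MCAF1 region of the ends was called (41 in the rest of the autosomes), while 20 REST, 74 Ring1b and 24 H4K20me3 regions of the ends were. In REST, 13 of 19 regions within 500 kb (68.4%, 43.4% to 87.4%) and 17 of 44 further in (38.6%, 24.4% to 54.5%) overlapped a region of another library, beside 47.9% in the rest of the autosomes. In Ring1b the same shares were 35 of 51 (68.6%, 54.1% to 80.9%) and 75 of 183 (41.0%, 33.8% to 48.5%), beside 54.9%. The inner share thus lay below that of the rest of the autosomes, and the outer interval held it. Chromosome 15 held 38 of the 183 inner Ring1b regions, and a share without it was not computed. In H4K20me3 the shares were 36 of 62 (58.1%) and 70 of 117 (59.8%), beside 58.0%.

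**Figure D4:**
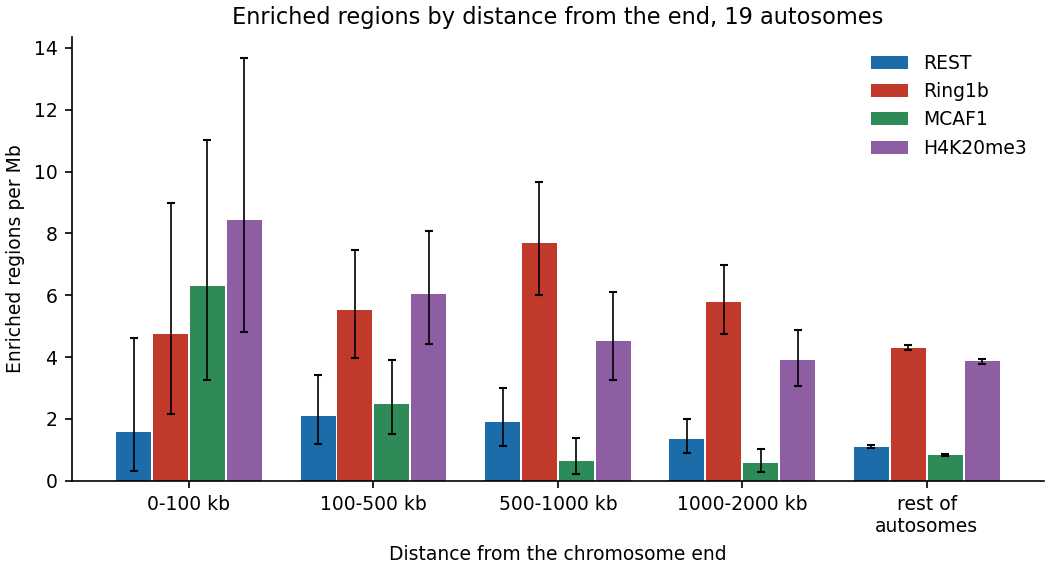
Enriched regions per Mb by distance from the chromosome end over 19 autosomes, with the rest of the autosomes at the right. Bars start at 0 and show single libraries, with exact 95% counting intervals. MCAF1 falls from 6.32 per Mb in the last 100 kb to 0.579 per Mb between 1000 and 2000 kb, and H4K20me3 from 8.42 to 3.89.

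The highest regions ranged from those raised mainly in 1 library to those raised in all 4. The REST region on chromosome 4 at 154702501–154704000, 326 kb from the end, reached 79.8-fold (69.6 to 91.1), where Ring1b had 5.14, MCAF1 1.51 and H4K20me3 1.95. The highest Ring1b regions lay on chromosome 12 at 119289501–119296000 (87.6-fold), chromosome 19 at 59510001–59516500 (78.9-fold) and chromosome 4 at 153477501–153487500 (65.2-fold). There MCAF1 ran from 1.51 to 3.55 and H4K20me3 from 2.82 to 5.85, while REST reached 9.55 on chromosome 19. The highest H4K20me3 region lay on chromosome 9 at 123775501–123783500, with 49.9-fold (43.8 to 56.5), where MCAF1 had 9.19, Ring1b 5.13 and REST 4.41. The second H4K20me3 region lay 3.83 kb from the end of chromosome 13 at 120606001–120610500, with 32.5-fold (26.7 to 39.2), where Ring1b had 20.9, REST 5.88 and MCAF1 4.80.

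Other high regions were common to the 4 libraries. On chromosome 1 at 196941501–196943000, 126 kb from the end, REST was at 38.2-fold, Ring1b 45.5, MCAF1 15.2 and H4K20me3 23.0. On chromosome 2 at 181846001–181849000, 77.3 kb from the end, the folds were 36.8, 21.8, 20.6 and 27.1. On chromosome 19 at 61253501–61255000, 66.2 kb from the end, they were 19.7, 28.3, 16.2 and 31.6. These 3 regions were the 3 highest MCAF1 regions of the ends, and those on chromosomes 1 and 2 were also among the 3 highest REST regions and that on chromosome 19 among the 3 highest H4K20me3 regions. In all, 7 REST, 7 Ring1b, 7 MCAF1 and 8 H4K20me3 regions of the ends overlapped a call in every other library, which is 11.1% (4.59% to 21.6%), 2.99% (1.21% to 6.07%), 14.6% (6.07% to 27.8%) and 4.47% (1.95% to 8.62%) of them. In the rest of the autosomes the shares were 7.31%, 1.89%, 9.44% and 2.04%, each inside the interval for the ends.

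Reads with 2 reported locations, whose true origin is not known, stood well above the autosome mean in the outermost 250 kb. In the last 100 kb, reads with 1 location lay below that mean in REST (0.778), Ring1b (0.746) and MCAF1 (0.834), but not in H4K20me3 (1.16). Over the last 2 Mb the fold of reads with 2 locations was 1.12 (1.09 to 1.15) in REST, 1.15 (1.12 to 1.18) in Ring1b, 1.13 (1.11 to 1.15) in MCAF1 and 1.19 (1.16 to 1.21) in H4K20me3. In the last 250 kb it was 1.94 (1.84 to 2.03), 2.22 (2.11 to 2.33), 2.92 (2.83 to 3.01) and 3.44 (3.33 to 3.55), and 13, 14, 14 and 14 of 19 ends lay above 1. Without the last 250 kb, the rest of the 2 Mb was at 1.0, 0.999, 0.879 and 0.865. The excess of these reads therefore lay in the outermost 250 kb, and it was larger in H4K20me3 and MCAF1 than in REST and Ring1b. The shorter seed of 26 bases in REST and Ring1b was part of the same split, and its share was not tested.

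The share of read positions that had 2 locations rose with it. Between 50 and 100 kb from the end it was 34.2% (31.8% to 36.7%) in REST, 35.5% (33.1% to 37.9%) in Ring1b, 24.8% (23.6% to 26.1%) in MCAF1 and 24.4% (23.0% to 25.9%) in H4K20me3. From 2 to 4 Mb it was 9.72%, 7.85%, 4.32% and 4.12%. Over the same distances, the share of 1-kb windows holding a read with 1 location was 84.5% and 95.4%. At the centromere-proximal 2 Mb their fold was 1.77, 2.02, 2.35 and 2.48, higher than over the distal 2 Mb in each library.

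Reads with 2 locations were gathered in a few bins. The chromosome 2 end was the highest over the last 250 kb in all 4 libraries, from 5.01 in REST to 7.71 in H4K20me3. Between 50 and 100 kb it stood at 27.8 in Ring1b, and without it the Ring1b fold at that distance was 2.55 in place of 3.88. For REST, Ring1b and MCAF1 the 3 highest bins were on chromosomes 1, 2 or 19 and held the regions called in all 4 libraries, with folds from 42.1 to 77.9. In H4K20me3 the highest was on chromosome 6 at 149315541–149325540, 141-fold, where REST had 16.4, Ring1b 5.42 and MCAF1 36.9. The second was the chromosome 9 bin at 123770625–123780624, at 119-fold, which was also the highest H4K20me3 bin for reads with 1 location. Together, 3 bins held 7.25% of all distal H4K20me3 reads with 2 locations and 3.47% to 5.11% in the other libraries.

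Compared in pairs and pooled over the ends, the libraries differed little once chromosome 15 was set aside. There were 6 pairs. The fold of REST over Ring1b was 0.875 (0.864 to 0.885), of Ring1b over MCAF1 1.15 (1.14 to 1.16) and of Ring1b over H4K20me3 1.10 (1.09 to 1.11). Without chromosome 15 these were 1.01, 0.988 and 0.948, so the direction of each turned. REST over MCAF1 was 1.0 (0.995 to 1.01), REST over H4K20me3 0.962 (0.953 to 0.972) and MCAF1 over H4K20me3 0.958 (0.952 to 0.965). Single ends differed more, and at the median end the last 2 of these pairs went the other way. REST over H4K20me3 ran from 0.746 to 1.58 with a median of 1.04, and REST was higher on 11 of 19 ends. MCAF1 over H4K20me3 ran from 0.741 to 1.36 with a median of 1.09, and MCAF1 was higher on 12 of 19. MCAF1 and H4K20me3 followed each other closely across distal bins, with a Spearman coefficient of 0.907 over 3800 bins, beside 0.902 over all autosomal bins. For REST and H4K20me3 these were 0.779 and 0.770, and bins share library depth and mappable sequence. The ends were in this respect close to the autosomes as a whole.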

How the data were processed

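The members and lists were chosen with earlier results of these data known. Per the file headers, the authors aligned reads with Bowtie, with at most 2 locations per read, 2 mismatches in the seed and quality sum 70; the seed was 26 bases (REST, Ring1b) or 36 bases (MCAF1, H4K20me3). No source used here gives a version; the build is mm8, per the submitters' processing notes. The deposited values are signed read positions, counted from 0 and converted here to count from 1. They are not normalised.

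Reads with 1 and with 2 locations were kept apart, 1 per position and strand. Reads were moved 75 bp downstream for region calls in windows of 1000 bp every 500 bp, with Python 3.11.15, numpy 2.4.6 and scipy 1.17.1. Domains join regions at most 10 kb apart. Poisson, Clopper-Pearson and conditional binomial intervals cover counting error. The caller and the folds were tested on simulated data. Named were the 3 highest and 3 lowest ends, each library's highest and lowest end, its 3 highest bins and regions, and its bin of highest ratio over the other libraries. Further ends, domains and regions were named after their values were seen. Alternatives changed repeats, denominators, end lengths, thresholds, bin sizes, depth and backgrounds. The alternatives without the widest Ring1b domain, without the last 250 kb and with region densities leaving out each end were chosen after seeing the data. Gene names come from RefSeq order on GRCm38.p6. No mm8 sequence or annotation was used here.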

Additional observations from a re-analysis of the deposited data

Results flagged for a closer look

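The last 2 Mb of the X chromosome lie outside the autosomal comparison and held reads in all 4 libraries. On the scale of the autosome mean, which the X chromosome as a whole does not reach, the fold was 0.445 (0.419 to 0.471) in REST, 0.402 (0.378 to 0.428) in Ring1b, 0.450 (0.437 to 0.464) in MCAF1 and 0.554 (0.536 to 0.572) in H4K20me3. The whole X chromosome stood at 0.311, 0.290, 0.277 and 0.242. Over its own chromosome's mean the X end was therefore at 1.43, 1.39, 1.63 and 2.29, above 1 in each library and highest in H4K20me3.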

How the results depend on the processing

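No paired analysis was possible because each antibody had 1 library. Values follow the order REST, Ring1b, MCAF1, H4K20me3 unless named. For reads with 1 location, the fold over each chromosome's own mean was 1.07, 1.22, 1.06 and 1.09; in the last 1 Mb 0.995, 1.27, 0.999 and 1.04, below 1 for REST and MCAF1; in the last 5 Mb 1.23, 1.35, 1.24 and 1.34; as median bin over median bin 1.0, 1.13, 1.13 and 1.13; and without the highest 1% of bins 1.06, 1.08, 1.07 and 1.07. Without the last 100 kb it was 1.11, 1.27 and 1.10 for REST, Ring1b and MCAF1. For Ring1b it was 1.24 with reads of 1 and 2 locations together and 1.09 without its widest domain. Leaving out each end in turn gave 1.03 to 1.12, 1.04 to 1.29, 1.03 to 1.12 and 1.05 to 1.18.

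The percentage of distal bins was 20.6, 17.5, 25.0 and 26 at 1.5-fold and 3.66, 5.61, 1.34 and 5.34 at 3-fold. Regions per Mb with the other 3 libraries as background were 0.526, 1.95, 0 and 0.632. With the genome mean as background they were 2.87 for REST, 5.63 for MCAF1 and 11.5 for H4K20me3, and at equal depth 0.342 for MCAF1 and 1.74 for H4K20me3. REST had 3.39 at a probability of 1e-06 and 0.947 at 1e-12. Leaving out each end in turn gave 1.36 to 1.75, 5.44 to 6.47, 1.14 to 1.33 and 4.31 to 4.94.

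Pair ratios without the highest 1% of bins were 0.980 (REST over Ring1b), 0.993 (REST over MCAF1), 0.985 (REST over H4K20me3), 1.01 (Ring1b over MCAF1), 1.01 (Ring1b over H4K20me3) and 0.992 (MCAF1 over H4K20me3). Over own chromosome means, REST over H4K20me3 was 0.975 and MCAF1 over H4K20me3 0.972. Leaving out each end in turn gave ranges of 0.864 to 1.01, 0.995 to 1.01, 0.952 to 0.984, 0.988 to 1.17, 0.948 to 1.14 and 0.949 to 0.989 in that order.

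For reads with 2 locations, the fold without the highest 1% of bins was 1.09 for REST, 1.09 for Ring1b and 1.11 for H4K20me3, and with every read kept 1.11 for MCAF1 and 1.21 for H4K20me3. Without the last 250 kb it was 1.0, 0.999, 0.879 and 0.865. Leaving out each end in turn gave 1.08 to 1.14, 1.11 to 1.18, 1.05 to 1.17 and 1.11 to 1.22. The cause of each shift was not tested. Depth limits single bins most in REST and Ring1b.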
